A study of Mus musculus with 9 samples.

Results

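Mitochondrial ribosomal proteins (MRPs) are the nuclear-encoded proteins of the ribosome that works inside mitochondria. Their genes were followed on exon arrays while mouse bone marrow precursors were driven towards osteoclasts (OCs), the multinucleated cells that resorb bone. A gene was taken as a member when its single symbol began with Mrpl or Mrps followed by a digit, and the transcript cluster with the highest mean was kept where a symbol had several. This gave 68 of 14860 measured genes, 43 of the large subunit (Mrpl) and 25 of the small subunit (Mrps). RefSeq lists 78 protein-coding mouse genes with such symbols, and the 10 that are not members are Mrpl18, Mrpl23, Mrpl27, Mrpl42, Mrpl44, Mrpl53, Mrps6, Mrps21, Mrps22 and Mrps33. Of these, Mrpl53, Mrps6 and Mrps22 lay on clusters shared with another gene and were not analysed here.

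The RNA came from myeloid precursors (MPs) of C57Black6 mice, flushed from the marrow and expanded with 100 ng/ml CSF-1, on which cells of the macrophage lineage depend, over 3 days before they were seeded in a commercial OC culture kit. There were 3 groups of 3 arrays: MPs treated with CSF-1 alone, MPs treated with CSF-1 and RANKL for 1.5 days, and MPs treated with CSF-1 and RANKL for 3 days. RANKL is the cytokine that drives OC formation. No age of the mice and no culture time for CSF-1 alone are given in the sources used here, and effects of RANKL and of culture time cannot be told apart. In general terms the methods describe replicates as biological, the labels do not say which cultures or mice each array stands for, and p-values measure the spread between these arrays. In such bulk RNA, fewer cells of a type and less RNA per cell cannot be told apart.

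Mitochondria keep a small genome whose protein-coding genes all encode subunits of the respiratory chain and ATP synthase. Every one of these proteins is made by the mitochondrial ribosome, whose RNAs come from the mitochondrial genome while all its proteins are made in the cytosol and imported. The small subunit binds the messenger RNA and decodes it, and the large subunit forms peptide bonds and releases the chain at the inner membrane. Osteoclasts are known for being rich in mitochondria.

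Each array held 23332 transcript clusters, with a median log2 signal between 5.02 and 5.22. RANKL 3 days replicate 3 had the highest median, 5.22, and an upper quartile of 7.66. Elsewhere medians lay between 5.02 and 5.09 and upper quartiles between 7.49 and 7.55. The values were normalised so that all arrays share nearly one distribution, and a shift common to most genes would be lost. The 7 measured myeloid markers, among them Csf1r and Cd68, had median log2 changes of -0.05 at 1.5 days and -0.03 at 3 days. Such changes do not show how high these genes stood. The OC marker list stood at 1.70 at 1.5 days and 3.51 at 3 days (9 genes). At the same times granulocyte markers stood at -0.03 and -0.35 and lymphoid markers at -0.09 and -0.09. Erythroid and megakaryocyte markers stood at -0.03 and -0.14, and stroma and osteoblast markers at -0.02 and -0.06. Within the myeloid list Spi1 rose by 0.41 at 1.5 days (adjusted p = 0.0427) and Fcgr1 stood at -1.06, below CSF-1 alone on all 3 arrays (adjusted p = 0.1675). Of the 68 MRP genes, 65 were among the 7430 genes, of 14860, with the higher mean signal, called the brighter genes here. No MRP gene lay below the lower quartile of every array in all 3 groups. Mrpl48 came nearest, with a mean log2 signal of 3.13 over the 9 arrays.

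Most MRP signals stayed within 2-fold across the 9 arrays, and no like range was taken over all genes. The range of a gene from its lowest to its highest array had a median of 0.47 on the log2 scale, and only Mrpl21, Mrpl48 and Mrpl52 ranged over 1 or more, that is 2-fold. The narrowest range belonged to Mrpl11, a protein at the base of the stalk that recruits translation factors, whose 9 values lay within 0.19. Within groups the median SD of the MRP genes was 0.18 at 3 days, 0.10 at 1.5 days and 0.10 for CSF-1 alone. The same medians over the brighter genes were lower in every group, at 0.16, 0.08 and 0.08, with the widest spread at 3 days in both.

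RANKL 3 days replicate 1 stood apart from the other 3 days arrays, and the SD without it was not taken. Set against each gene's own CSF-1 alone mean, the median MRP gene stood at -0.08, 0.04 and 0.05 on replicates 1, 2 and 3 of CSF-1 alone. It stood at 0.09, 0.14 and 0.14 on the 1.5 days arrays, and at -0.11, 0.16 and 0.13 on the 3 days arrays. All 3 arrays of 1.5 days thus lay above all 3 of CSF-1 alone, whereas the 3 days group held both the lowest and the highest array. RANKL 3 days replicate 1 was below both other 3 days arrays for 57 of 68 MRP genes (83.8%, against 45.7% of all genes). CSF-1 alone replicate 1 was below both other CSF-1 alone arrays for 49 of 68 (72.1%, against 39.5%). Between them these arrays held the lowest value of 54 of 68 MRP genes, 29 on the former and 25 on the latter. Of all genes, 28.3% had their lowest value on the former and 12.8% on the latter.

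**Figure D1:**
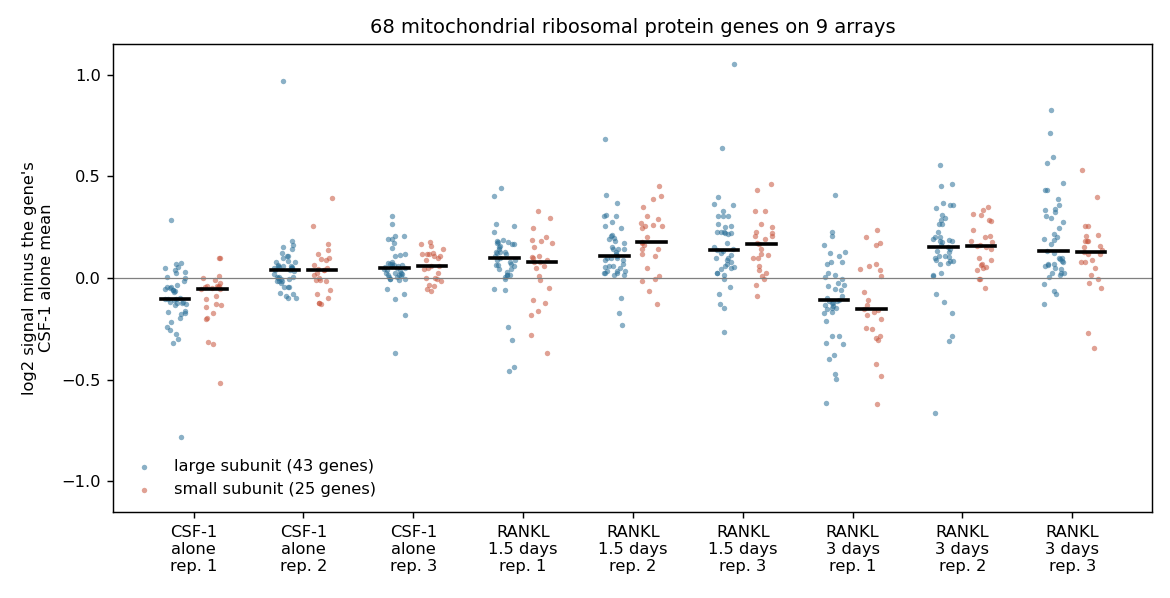
Log2 signal of each MRP gene on each of the 9 arrays (x axis) minus that gene's mean over the 3 CSF-1 alone arrays (y axis, log2 units), with points for 43 large subunit and 25 small subunit genes and a black bar at each median. RANKL 3 days replicate 1 and CSF-1 alone replicate 1 sit lowest, with medians over all 68 genes of -0.11 and -0.08, and the 3 arrays of 1.5 days all have medians above 0.

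Cell cycle genes moved with RANKL 3 days replicate 1. The median of 20 measured cell cycle genes was -0.76 on that array, against -0.02 and 0.11 on the other 3 days arrays and between -0.06 and 0.11 on the remaining 6. Myc, a transcription factor gene of growth and ribosome production, had a log2 signal of 7.55 there and between 8.78 and 9.56 on the other 8 arrays. The OC marker list stood at 2.51 above the CSF-1 alone mean on that array and at 3.99 and 4.04 on replicates 2 and 3. RANKL 1.5 days replicate 1, the lowest of its group for the MRPs, also stood apart in that list, at 1.11 against 2.15 and 2.44. The part these differences have in the MRP values was not tested, and results at 3 days are given below with and without that array.

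To ask whether the MRPs differ between MPs and OCs, the 3 days arrays were set against CSF-1 alone. No MRP gene passed the threshold of an adjusted p under 0.05 over all genes (limma), where 0.397% of all 14860 genes did, and the methods' t-test called none either. Only 1 of the 9 OC markers passed the limma threshold at 3 days, at a median log2 change of 3.51, and 0 of 9 at 1.5 days. A gene that did not pass is thus not shown to be unchanged. An unadjusted p under 0.05 was found for 5 MRP genes, all higher at 3 days (Mrpl1, Mrpl3, Mrpl17, Mrpl24 and Mrps35), against 5.9% of all genes higher and 4.63% lower. The differences were small, from -0.23 for Mrpl40 to 0.44 for Mrpl52 on the log2 scale. The median change was 0.06 for the large and 0.04 for the small subunit (-0.0067 over all genes), with 48 of 68 genes above 0 and 17 below (70.6% above, against 46.8% of all genes and 55.2% of the brighter genes), a leaning that turned to 31 above and 37 below when each array was centred on its median. The 3 arrays of 3 days lay wholly above the 3 of CSF-1 alone for 8 MRP genes (11.8%), against 6.59% of all genes and 10% of the brighter genes. They lay wholly below for 1, Mrpl28, against 4.91% of all genes and 5.1% of the brighter genes.

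The smallest p-values at 3 days were those of Mrpl1 and Mrpl24. Mrpl1, the counterpart of the bacterial protein at the site where spent tRNA leaves, had log2 signals of 7.46, 7.58 and 7.53 with CSF-1 alone, 7.69, 7.73 and 7.66 at 1.5 days, and 7.75, 7.88 and 7.91 at 3 days. The 3 groups did not overlap and stood in the order of time. The 3 days mean exceeded the CSF-1 alone mean by 0.32 (SE 0.06, 95% interval 0.18 to 0.47, limma adjusted p = 0.0920), or 25.1%. Mrpl24, a protein near the exit of the peptide tunnel, had 8.49, 8.58 and 8.53, then 8.71, 8.78 and 8.76, then 8.74, 8.82 and 8.84 in the same order of groups. Here the CSF-1 alone arrays lay below all 6 RANKL arrays, while the 1.5 and 3 days arrays overlapped. The difference at 3 days was 0.27 (SE 0.05, adjusted p = 0.103).

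Mrpl17, another protein of the tunnel exit, gave 6.38, 6.48 and 6.59 with CSF-1 alone, 6.61, 6.68 and 6.79 at 1.5 days and 6.61, 6.75 and 7.05 at 3 days. Its RANKL arrays also all lay above those of CSF-1 alone, with a difference at 3 days of 0.32 (SE 0.12, adjusted p = 0.382). Mrpl3, which reaches towards the peptidyl transferase centre, gave 8.35, 8.45 and 8.39, then 8.57, 8.54 and 8.52, then 8.52, 8.53 and 8.59. It had the lowest SE of all MRP genes, 0.05, and a difference of 0.15 at both times (adjusted p = 0.345 at 3 days). In the small subunit Mrps35, a protein of the head with no bacterial counterpart, gave 6.48, 6.56 and 6.52, then 6.69, 6.97 and 6.95, then 6.72, 6.87 and 7.05. Its RANKL arrays lay above all CSF-1 alone arrays at both times, by a mean of 0.36 at 3 days (SE 0.10, adjusted p = 0.253).

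MRP promoters were searched for short motifs, since the genes with the smallest p-values stood higher at both times. The 250 bases before each start were taken from the RefSeq promoter table of build GRCm38.p6, in which 59 of the 68 genes matched with 65 promoters, against 32851 promoters in all. Both strands were read for 6 motifs, none of which contains another: the NRF1 palindrome (GCGCA followed by its reverse complement), CCGGAAG of the ETS family with GABP, AAGATGGCG of YY1, the E-box CACGTG, GAGGAAGT of PU.1, and TATAAA of the TATA box. The ETS letters were present in 21.5% of MRP promoters (14 of 65) and in 6.91% of all promoters. The other shares, MRP promoters against all, were 4.62% against 0.782% for NRF1, 3.08% against 0.606% for YY1, 10.8% against 6.02% for the E-box, 1.54% against 2.44% for PU.1 and 7.69% against 12.4% for the TATA box. The single PU.1 match was in front of Mrps10. Genes with the ETS letters had a median log2 change at 1.5 days of 0.12 and those without them 0.11, and at 3 days 0.09 and 0.05. These matches are descriptions of letters, and changes were not tested by motif.

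The upstream 250 bases of the large subunit genes with the leading values are shown, 5′ to 3′ on the gene's strand, with matches to the 6 motifs in capitals. They lie at chr5:96209865-96210114 (Mrpl1, plus strand), chr3:87919294-87919543 (Mrpl24, plus), chr9:105053018-105053267 (Mrpl3, plus), chr7:105811088-105811337 (Mrpl17, minus) and chr14:54426659-54426908 (Mrpl52, plus).
Mrpl1: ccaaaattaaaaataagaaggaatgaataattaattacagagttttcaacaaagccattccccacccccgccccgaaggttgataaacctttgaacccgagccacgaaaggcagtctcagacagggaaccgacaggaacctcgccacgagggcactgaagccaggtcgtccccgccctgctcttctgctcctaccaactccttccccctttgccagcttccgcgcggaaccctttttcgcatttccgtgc
Mrpl24: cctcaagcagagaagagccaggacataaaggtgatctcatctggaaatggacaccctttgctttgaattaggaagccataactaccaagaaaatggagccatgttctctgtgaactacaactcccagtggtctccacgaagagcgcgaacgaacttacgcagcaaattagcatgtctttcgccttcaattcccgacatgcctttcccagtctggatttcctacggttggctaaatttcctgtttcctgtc
Mrpl3: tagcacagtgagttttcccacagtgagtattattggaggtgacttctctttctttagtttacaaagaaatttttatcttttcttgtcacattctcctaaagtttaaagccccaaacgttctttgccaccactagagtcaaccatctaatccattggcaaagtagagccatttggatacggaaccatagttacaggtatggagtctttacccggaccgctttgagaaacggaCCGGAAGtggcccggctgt
Mrpl17: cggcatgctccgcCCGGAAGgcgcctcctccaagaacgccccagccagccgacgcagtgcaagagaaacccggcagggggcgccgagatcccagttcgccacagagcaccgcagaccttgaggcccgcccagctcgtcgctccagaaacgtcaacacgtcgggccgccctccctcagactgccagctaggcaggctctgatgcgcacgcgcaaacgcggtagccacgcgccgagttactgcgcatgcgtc
Mrpl52: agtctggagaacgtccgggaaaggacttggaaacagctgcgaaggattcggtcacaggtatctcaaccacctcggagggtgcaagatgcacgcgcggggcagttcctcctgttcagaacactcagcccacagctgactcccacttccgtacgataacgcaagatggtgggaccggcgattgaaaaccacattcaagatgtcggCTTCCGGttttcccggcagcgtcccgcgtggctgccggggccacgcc
The windows of Mrpl1 and Mrpl24 held none of the 6 motifs. Those of Mrpl3, Mrpl17 and Mrpl52 held 1 ETS match each, on the minus strand in Mrpl52, at positions -19, -237 and -47 from the start of transcription.

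The remaining MRP genes at 3 days showed how few of the differences cleared the spread. Mrps12, a protein of the decoding centre, gave 5.76, 6.25 and 6.24 with CSF-1 alone against 6.32, 6.37 and 6.29 at 3 days, no overlap but a gap of 0.04 between the nearest arrays. Mrpl51 gave 7.07, 7.22 and 7.23 against 7.28, 7.36 and 7.51, and its 1.5 days arrays (7.30, 6.94 and 7.27) spanned both. Mrps30, which sits in the large subunit despite its symbol, gave 6.78, 6.74 and 6.94 against 6.98, 7.10 and 7.0. These 3 genes differed by 0.24, 0.21 and 0.21, with adjusted p-values of 0.665, 0.569 and 0.628.

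Mrpl21 (0.29), Mrps18a (0.20) and Mrpl52 (0.44) were also among the 4 largest positive differences of their subunit at 3 days, with groups that overlapped. Of the genes that stood lower, Mrpl28 gave 7.68, 7.75 and 7.82 with CSF-1 alone and 7.64, 7.58 and 7.62 at 3 days, a difference of -0.14 (SE 0.08, adjusted p = 0.620). Mrpl40, a protein of the central protuberance at the top of the large subunit, gave 8.16, 8.27 and 8.20 against 7.74, 7.90 and 8.31 (-0.23, adjusted p = 0.628). RANKL 3 days replicate 3 lay above every CSF-1 alone array. Mrpl13 (-0.12), Mrps28 (-0.19), Mrps36 (-0.12) and Mrps10 (-0.08) completed the largest negative differences of each subunit, and none had an unadjusted p under 0.05.

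The small upward leaning at 3 days turned on single arrays. The counts were nearer to even without CSF-1 alone replicate 1 (37 genes above 0 and 31 below), RANKL 3 days replicate 2 (37 and 31) or RANKL 3 days replicate 3 (35 and 33). Medians were 0.01, 0.01 and 0.0075. In that order 54.4%, 54.4% and 51.5% of MRP genes lay above 0. The shares were 45.5%, 44% and 44.9% of all genes and 51.4%, 56.4% and 46.2% of the brighter genes. The leaning was wider without RANKL 3 days replicate 1. The median change was then 0.16 for the large and 0.15 for the small subunit, 61 of 68 genes lay above 0 (89.7%, against 54% of all genes and 63.8% of the brighter genes), and 29 lay wholly above CSF-1 alone (42.6%, against 15.1% and 22.5%). Mrpl1 passed the threshold in that fit with a difference of 0.37 (adjusted p = 0.0482), as the sole MRP gene. Replicates 2 and 3 of both groups alone gave 55 genes above 0 and 12 below and no call. That was 80.9% above, against 51.1% of all genes and 58.4% of the brighter genes. With all arrays and the array set (replicate 1 against 2 and 3) as a term, Mrpl1 and Mrpl24 were called.

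**Figure D2:**
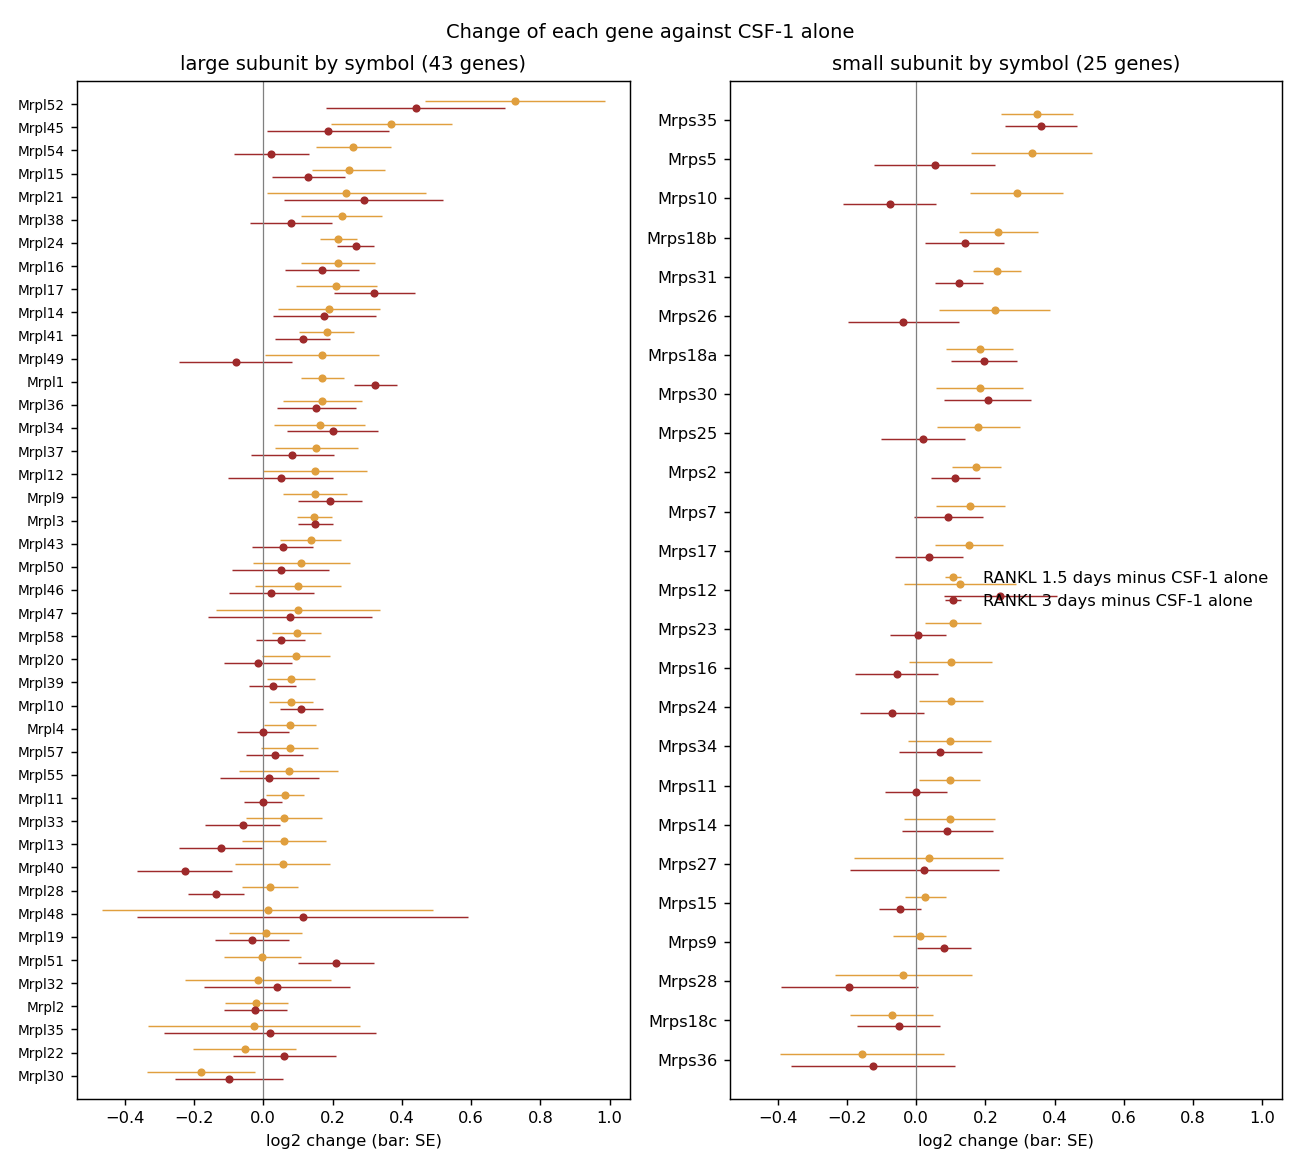
Log2 change (x axis) of each of the 43 large subunit and 25 small subunit genes (y axis, ordered by the value at 1.5 days) for RANKL 1.5 days and RANKL 3 days minus CSF-1 alone, with points for the estimates and bars for the SE from limma. At 1.5 days 59 of 68 points lie above 0, from -0.18 for Mrpl30 to 0.73 for Mrpl52, and at 3 days 48 do, or 31 when each array is centred on its median.

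To determine whether differences were present early, the 1.5 days arrays were set against CSF-1 alone. Again no MRP gene passed over all genes (limma, and the methods' t-test), where 0.417% of all genes did. MRP genes stood higher by a small amount in large number: 59 of 68 lay above 0 (86.8%, against 51.4% of all genes and 53.6% of the brighter genes) and 9 below. The median log2 change was 0.10 for the large and 0.13 for the small subunit, 0.11 over both, which is 7.8% on a linear scale, and 0.0067 over all genes. The 1.5 days arrays lay wholly above CSF-1 alone for 15 MRP genes (22.1%, against 8.63% of all genes and 13.6% of the brighter genes) and wholly below for none (6.05% and 8.49%). An unadjusted p under 0.05 was found for 9, all higher, against 4.58% of all genes higher and 4.25% lower. Without CSF-1 alone replicate 1, the lowest of the controls, 51 of 68 genes lay above 0 and the median was 0.09. That was 75% above, against 48.9% of all genes and 48.6% of the brighter genes. Fewer arrays overlap less often: leaving out CSF-1 alone replicate 3 gave 24 genes wholly above (35.3%, against 12.3% of all genes and 17.2% of the brighter genes), and leaving out RANKL 1.5 days replicate 1 gave 28 (41.2%, against 15.9% and 20.8%).

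Mrpl52, a large subunit protein without a bacterial counterpart, had the largest difference at 1.5 days. Its log2 signals were 6.65, 6.90 and 7.23 with CSF-1 alone, 7.37, 7.61 and 7.98 at 1.5 days and 6.87, 7.48 and 7.75 at 3 days. The 1.5 days arrays lay above all CSF-1 alone arrays by a mean of 0.73, or 1.65-fold (SE 0.26, 95% interval 0.13 to 1.33, adjusted p = 0.434). At 3 days the groups overlapped, with a difference of 0.44 (adjusted p = 0.618).

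In the small subunit, Mrps35 and Mrps31, both proteins of the head, had the smallest p-values at 1.5 days. Mrps31 gave 6.74, 6.91 and 6.73 with CSF-1 alone, 6.98, 7.10 and 7.0 at 1.5 days and 6.86, 6.97 and 6.92 at 3 days. It stood above CSF-1 alone on all 1.5 days arrays, by 0.23 (SE 0.07, adjusted p = 0.303), and overlapped it at 3 days. Mrps35 differed by 0.35 (SE 0.10, adjusted p = 0.306). Mrpl24 had the smallest p-value of the large subunit at this time, with a difference of 0.22 (adjusted p = 0.198), followed by Mrpl3 at 0.15 (adjusted p = 0.413), Mrpl52 and Mrpl1 at 0.17 (adjusted p = 0.452).

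Other genes had their highest mean at 1.5 days, with 3 days arrays that overlapped CSF-1 alone, and none passed the test. Mrps5, which lies at the entry of the messenger RNA, gave 6.69, 7.14 and 7.18 with CSF-1 alone, 7.33, 7.35 and 7.33 at 1.5 days, and 6.70, 7.21 and 7.26 at 3 days. The 1.5 days arrays were nearly equal and above all others, with a difference from CSF-1 alone of 0.33 (SE 0.18, adjusted p = 0.704). RANKL 3 days replicate 1 lay near the lowest control, and replicates 2 and 3 of 3 days lay above every control. Mrpl54, a protein of the large subunit, gave 6.90, 6.92 and 7.20, then 7.27, 7.22 and 7.31, then 6.84, 7.16 and 7.09. It too was highest on all 1.5 days arrays (0.26 over CSF-1 alone, adjusted p = 0.546). Mrps10, a protein of the head, gave 6.21, 6.66 and 6.35, then 6.65, 6.81 and 6.63, then 6.12, 6.47 and 6.40. CSF-1 alone replicate 2 reached into the 1.5 days range, and the difference was 0.29 (adjusted p = 0.623).

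Mrpl45 anchors the ribosome to the inner membrane near the tunnel exit. It gave 7.61, 7.73 and 7.89 with CSF-1 alone, 7.91, 8.05 and 8.38 at 1.5 days and 7.61, 7.97 and 8.21 at 3 days, a difference of 0.37 at 1.5 days (adjusted p = 0.632). Mrps26 gave 8.04, 7.82 and 7.97, then 8.24, 8.06 and 8.21, then 7.52, 8.18 and 8.02. In both, all 1.5 days arrays lay above CSF-1 alone, and RANKL 3 days replicate 1 was low. Mrpl15 (0.25), Mrps18b (0.24) and Mrpl54 were the other members with large differences of their subunit. The lowest values were -0.18 for Mrpl30, -0.05 for Mrpl22 and -0.03 for Mrpl35 in the large subunit, and -0.16 for Mrps36, -0.07 for Mrps18c and -0.04 for Mrps28 in the small subunit. None of these 6 had groups that failed to overlap.

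**Figure D3:**
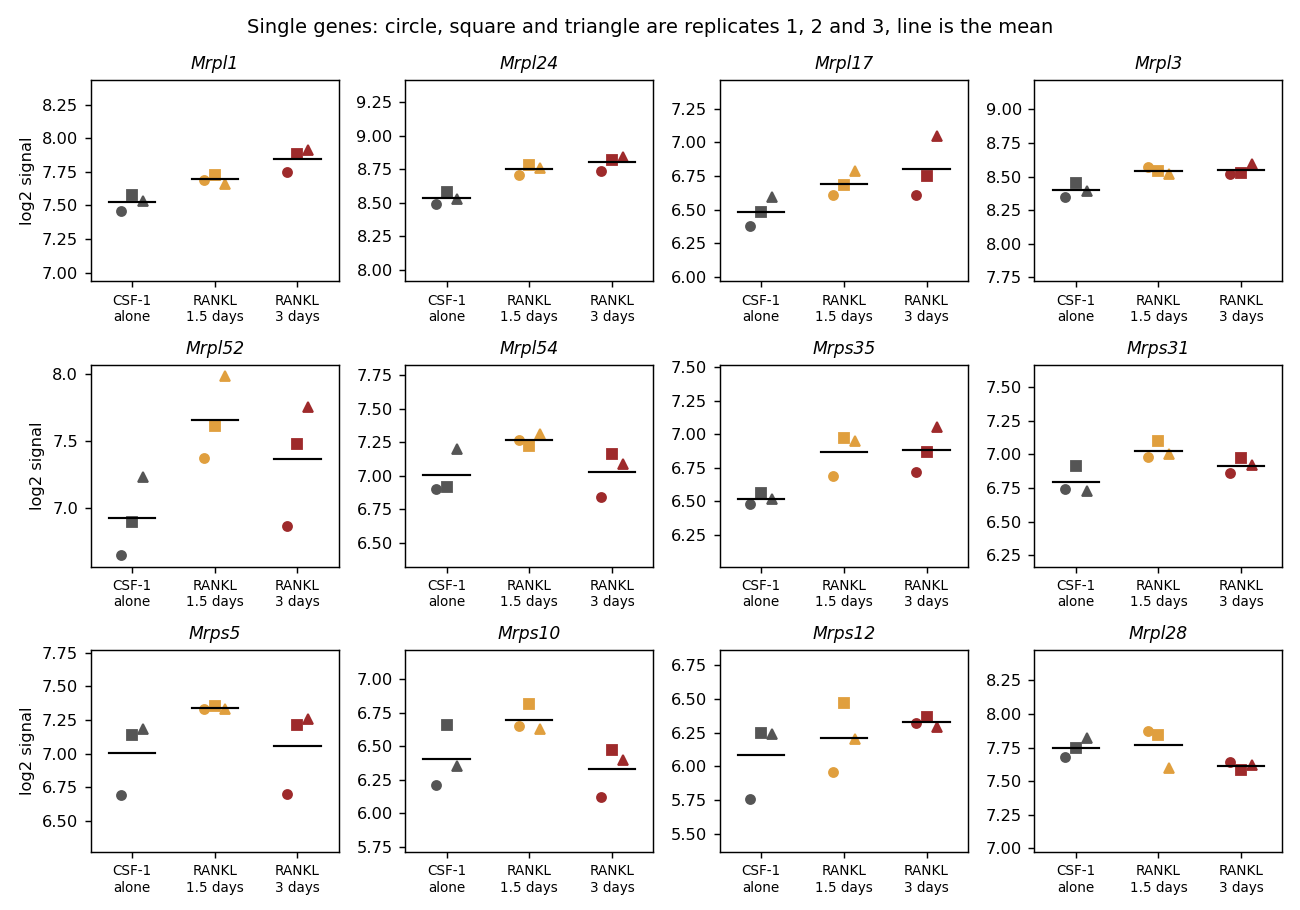
Log2 signal (y axis, each panel spanning 1.5 log2 units) of 12 MRP genes in the 3 groups (x axis), with a circle, square and triangle for replicates 1, 2 and 3 and a line at the group mean. Mrpl1 stands in the order of time with no overlap, Mrps5 and Mrpl54 are highest on all 3 arrays of 1.5 days, and Mrpl52 has the widest spread shown.

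Between 1.5 and 3 days no MRP gene passed over all genes (limma, and the methods' t-test), as was true of 0% of all genes. An unadjusted p under 0.05 was found for Mrpl1, higher at 3 days by 0.15 (SE 0.06, adjusted p = 0.823), and Mrps10, lower by a mean difference of -0.37 (SE 0.14, adjusted p = 0.823). Such p-values were found for 2.67% of all genes higher and 2.52% lower. The median was -0.05 for the large and -0.07 for the small subunit, with 21 genes above 0 and 47 below (30.9% above, against 45.9% of all genes and 53.1% of the brighter genes). Without RANKL 3 days replicate 1 these numbers were 35 and 33, with a median of 0.0017. That was 51.5% above, still below the 54.7% of all genes and 64.4% of the brighter genes. The groups did not overlap for 1 gene higher (Mrpl1, against 3.42% of all genes and 4.63% of the brighter genes) and 4 lower (Mrpl54, Mrps5, Mrps10 and Mrps31, against 3.37% and 2.96%). Without that array 4 genes were wholly higher (5.88%, against 9.63% of all genes and 13% of the brighter genes) and 4 wholly lower (against 5.85% and 4.8%). Leaving out RANKL 1.5 days replicate 1 or RANKL 3 days replicate 2 gave 13 genes above 0, and leaving out RANKL 3 days replicate 3 gave 14. These were 19.1%, 19.1% and 20.6%, against 45.6%, 43.9% and 43.1% of all genes and 54.3%, 55.4% and 42.8% of the brighter genes. With each array centred on its median 11 genes lay above 0 and 56 below, and with quantile normalisation repeated 15 and 53. Mrps24, which lines the entry of the messenger RNA, was among the small subunit genes with the smallest p-values, with 7.26, 7.41 and 7.44 at 1.5 days and 7.28, 7.32 and 7.0 at 3 days (-0.17, adjusted p = 0.823). Mrpl51 (0.21), Mrpl17 (0.11), Mrpl22 (0.11), Mrps12 (0.12) and Mrps9 (0.07) stood highest of the other genes of their subunit, and Mrpl52 (-0.29), Mrpl40 (-0.28), Mrpl49 (-0.25), Mrps5 (-0.28) and Mrps26 (-0.26) among the lowest.

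The precision of these estimates bounds what could have been seen. The median SE of an MRP gene was 0.12 on the log2 scale. The 95% interval of the change lay within 2-fold in either direction for 66 of 68 genes at 3 days and at 1.5 days, all but Mrpl48 and Mrpl52, and for 67 between the times. It lay within 0.5 on the log2 scale for 52 genes at 3 days, 49 at 1.5 days and 53 between them. For Mrpl48, of the central protuberance, the interval at 3 days ran from -0.99 to 1.22. That gene had 2.30, 4.05 and 2.90 with CSF-1 alone, 2.78, 3.20 and 3.31 at 1.5 days and 3.49, 2.42 and 3.68 at 3 days, with no order among the groups.

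Groups overlapped in every comparison for most MRP genes. Of these, 9 not yet given in full were named for the highest or lowest changes of their subunit. Mrpl21, a protein of the large subunit with low signals and a wide range, gave 4.23, 4.03 and 3.58 with CSF-1 alone, 4.35, 4.25 and 3.96 at 1.5 days and 3.92, 4.13 and 4.66 at 3 days. Its highest and lowest arrays were RANKL 3 days replicate 3 and CSF-1 alone replicate 3. Mrpl15, deep in the large subunit, gave 6.83, 7.06 and 6.97 with CSF-1 alone, 7.06, 7.36 and 7.18 at 1.5 days and 6.96, 7.06 and 7.23 at 3 days, so that CSF-1 alone replicate 2 shared its value with the lowest 1.5 days array. Mrpl22, which lines the peptide tunnel, gave 5.81, 5.72 and 5.68 with CSF-1 alone, 5.80, 5.64 and 5.61 at 1.5 days and 5.60, 5.62 and 6.17 at 3 days, and RANKL 3 days replicate 3 stood apart above the rest. Mrpl30 gave 7.42, 7.52 and 7.5 with CSF-1 alone, 7.04, 7.31 and 7.55 at 1.5 days and 7.10, 7.59 and 7.45 at 3 days, with its lowest arrays among those treated with RANKL. Mrpl35 gave 7.98, 8.23 and 8.50 with CSF-1 alone, 7.78, 8.25 and 8.60 at 1.5 days and 7.62, 8.58 and 8.57 at 3 days, a spread within groups far wider than the distance between their means. Mrpl13 gave 6.33, 6.71 and 6.60 with CSF-1 alone, 6.59, 6.69 and 6.54 at 1.5 days and 6.40, 6.26 and 6.61 at 3 days, with the lowest value at 3 days. Mrpl49 gave 7.54, 7.58 and 7.61 with CSF-1 alone, 7.83, 7.61 and 7.80 at 1.5 days and 7.08, 7.74 and 7.67 at 3 days, and RANKL 3 days replicate 1 lay far below the other 8 arrays. Mrps28 gave 7.32, 7.36 and 7.43 with CSF-1 alone, 7.09, 7.63 and 7.28 at 1.5 days and 6.75, 7.46 and 7.32 at 3 days, with the same array lowest. Mrps9, at the head of the small subunit, gave 6.62, 6.53 and 6.74 with CSF-1 alone, 6.64, 6.64 and 6.64 at 1.5 days and 6.80, 6.58 and 6.75 at 3 days and had all 9 arrays within 0.27.

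Genes were then grouped by place in the ribosome, as a description from which nothing particular to a group is drawn. Of the 3 proteins of the stalk and its base none passed the test: Mrpl10 stood at 0.11 and 0.08 at 3 and 1.5 days, Mrpl11 at 0.0 and 0.06 and Mrpl12, the stalk protein itself, at 0.05 and 0.15. Mrpl12 gave 7.97, 8.09 and 8.34 with CSF-1 alone, 8.23, 8.22 and 8.40 at 1.5 days, and 7.98, 8.50 and 8.07 at 3 days, so that its groups overlapped throughout. Mrpl10 gave 7.66, 7.74 and 7.58, then 7.74, 7.73 and 7.75, then 7.74, 7.86 and 7.71. Mrpl11 gave 8.30, 8.28 and 8.31, then 8.31, 8.45 and 8.32, then 8.26, 8.32 and 8.31.

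Around the tunnel exit 5 of 6 listed genes were measured (Mrpl17, Mrpl22, Mrpl24, Mrpl45 and Mrpl47), with a median change of 0.19 at 3 days and 0.21 at 1.5 days. All 5 stood above 0 at 3 days and 4 at 1.5 days, and the arrays of 3 (Mrpl17, Mrpl24 and Mrpl45) did not overlap CSF-1 alone at 1.5 days, as was so of 8.63% of all genes and 13.6% of the brighter genes. On RANKL 3 days replicate 1 their median was -0.13. In the head of the small subunit 6 of 7 listed genes were measured, with medians of 0.09 and 0.20, and 6 of 6 stood above 0 at 1.5 days. The 4 measured genes of the central protuberance had medians of 0.05 and 0.08 and no group separation. No gene of these lists passed the test in either direction.

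Symbols that hide other roles were looked at singly. Mrps18a, Mrps18b and Mrps18c are 3 relatives of 1 bacterial small subunit protein, of which Mrps18a is built into the large subunit. Mrps18a gave 8.41, 8.52 and 8.68, then 8.69, 8.79 and 8.68, then 8.58, 8.87 and 8.75, Mrps18b gave 8.56, 8.42 and 8.67, then 8.66, 8.82 and 8.88, then 8.48, 8.86 and 8.73, and Mrps18c gave 9.88, 10.06 and 10.13, then 9.84, 9.96 and 10.06, then 9.73, 10.12 and 10.07. The first and second stood above CSF-1 alone on average at both times, by 0.14 to 0.24, and the third did not, with -0.05 at 3 days and -0.07 at 1.5 days. The difference between the relatives was not tested. Mrpl58, a peptidyl-tRNA hydrolase that rescues stalled ribosomes, gave 7.21, 7.38 and 7.39, then 7.37, 7.52 and 7.38, then 7.35, 7.43 and 7.35. Mrps36, which belongs to the 2-oxoglutarate dehydrogenase complex rather than to the ribosome, gave 6.15, 7.06 and 6.79, then 6.30, 6.54 and 6.69, then 6.50, 6.81 and 6.32. Both had groups that overlapped in all 3 comparisons.

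The genes that serve the mitochondrial ribosome were set beside its proteins. Of 3 measured ribosomal proteins with other symbols, Ptcd3, Chchd1 and Gadd45gip1, none passed, with a median of 0.15 at 3 days and 0.23 at 1.5 days. Assembly and rRNA modification factors (20 of 24 measured) had medians of 0.08 and 0.05, translation factors (15 of 16) 0.13 and 0.07, and aminoacyl-tRNA synthesis (18 of 20) 0.11 and 0.10, with no gene passing in any direction. The smallest p-values among them belonged to the rRNA methyltransferase Mrm1 (0.22 at 3 days, adjusted p = 0.261), the ribosome recycling factor Gfm2 (0.22 at 3 days, adjusted p = 0.375), the tryptophanyl-tRNA synthetase Wars2 (0.22 at 1.5 days, adjusted p = 0.213) and the membrane insertase Oxa1l (0.22 at 1.5 days, adjusted p = 0.257). The elongation factor gene Tufm stood at -0.81 at 1.5 days (SE 0.41, adjusted p = 0.668).

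The nuclear-encoded subunits of the respiratory chain and ATP synthase (49 of 70 listed), partners of the proteins this ribosome makes, had a median of 0.11 at 3 days and 0.15 at 1.5 days. At 1.5 days 43 of 49 stood above 0 (51.4% of all genes and 53.6% of the brighter genes did) and 19 lay wholly above CSF-1 alone (8.63% and 13.6% did), and none passed over all genes at either time. The smallest p-value at both belonged to Uqcrfs1, the Rieske iron-sulphur protein of complex III, with 0.48 and 0.44 (adjusted p = 0.129 and 0.187). Cytosolic ribosomal proteins (20 measured) had medians of 0.02 and 0.11 and no gene past the threshold. Their list spread more widely, from -0.97 for Rps24 (adjusted p = 0.702) to 1.01 for Rplp0 (adjusted p = 0.0720) and 1.05 for Rpl37 (adjusted p = 0.369) at 3 days.

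**Figure D4:**
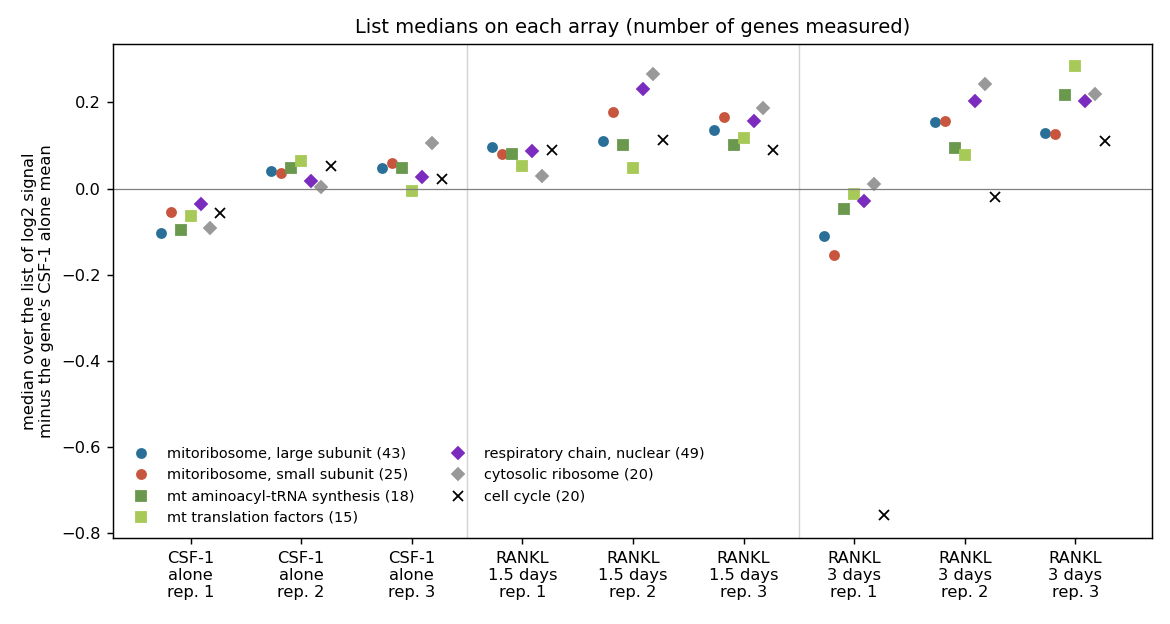
Median over each gene list (y axis, log2 signal minus the gene's CSF-1 alone mean) on each of the 9 arrays (x axis), with the number of genes measured in the key. On RANKL 3 days replicate 1 the large and small subunit lists stand at -0.11 and -0.15, the respiratory chain list at -0.03 and the cell cycle list at -0.76, while on the 1.5 days arrays all lists shown lie above 0.

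Of 9 transcriptional regulators of mitochondrial genes, 8 did not pass the test. Nrf1 and Gabpa, whose products bind promoters of many mitochondrial genes, stood at 0.03 and 0.08 at 3 days and at 0.04 for both at 1.5 days (adjusted p of 0.708 or more). Tfam, the packaging and transcription factor of mitochondrial DNA, stood at 0.18 and 0.27 (adjusted p = 0.582 and 0.458), and Polrmt, the mitochondrial RNA polymerase, at -0.0067 and 0.03. Tefm, its elongation factor, had the smallest p-value of the 8 measured genes of mitochondrial transcription and DNA, with 0.44 at 3 days (adjusted p = 0.212). Myc stood at -0.15 at 3 days and 0.59 at 1.5 days (adjusted p = 0.934 and 0.835), its 1.5 days arrays all above CSF-1 alone.

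Ppargc1b, a coactivator of mitochondrial biogenesis, was the one gene of these mitochondrial lists to pass. It rose at 3 days from 5.61, 5.75 and 5.78 with CSF-1 alone to 6.22, 6.47 and 6.48, by 0.68 (SE 0.10, adjusted p = 0.0477), after 6.20, 6.46 and 6.43 at 1.5 days (adjusted p = 0.0528). The call was lost under 12 of 22 alternative settings, among them each CSF-1 alone array left out in turn, where the adjusted p was as high as 0.182, and the methods' t-test, at 0.33. Differences of MRP genes from the same CSF-1 alone arrays were smaller than this in all cases at 3 days.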

How the data were processed

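Total RNA of 9 samples was hybridised, per the labels, to mouse exon arrays. The authors deposited log2 signals per transcript cluster, made with Affymetrix Expression Console and RMA (background correction, quantile normalisation and summarisation over probes). The sources used here give no versions and no genome build. RMA sets all arrays to nearly one distribution. A group's precision is limited by its 3 arrays: the smallest two-sided exact p that 3 against 3 arrays allow is 0.1. Groups came from the labels. Of 23332 clusters, 14996 had 1 symbol, updated through RefSeq gene IDs, 1019 had several and 7317 had none listed, and the last kinds were left out. The highest-mean cluster was kept for the 135 symbols with several. limma 3.58.1 (R 4.3.3) fitted 3 group means over all 14860 genes with Benjamini-Hochberg adjustment (residual df 6, prior df 1.83), checked on simulated data. Named were the 4 highest and 3 lowest changes and the 2 smallest p-values of each subunit and comparison, fixed genes of known role, and of other lists called genes, up to 3 by p and fixed regulators. Mrpl47 and Mrpl48 were named outside this rule after their values were seen. Members and lists were chosen with earlier results of these data known. Replicate numbers, from the labels, met the pairing check (every same-number correlation over 0.1) between 1.5 and 3 days alone. Alternatives covered a replicate block, array sets, normalisation, dim-gene filters, variance models, cluster and symbol rules, the methods' t-test and each array left out. Counts without single arrays and the brighter genes as background were chosen after seeing the data.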

Additional observations from a re-analysis of the deposited data

How the results depend on the processing

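In no alternative did a change with an unadjusted p under 0.05 reverse: 107 of 110 values at 3 days, 195 of 198 at 1.5 days and all 44 between the times stayed on their side of the threshold, and the other 6 passed it. These counts lend no support, since the genes were picked by p in the same data and settings such as dim-gene filters leave estimates unchanged. Of all 68 MRP genes, 17 turned sign at 3 days with arrays centred on the median. Without CSF-1 alone replicate 1, 8 did at 1.5 days. Between the times 16 did without RANKL 3 days replicate 1. At 3 days, 2 genes were called with the array set (replicate 1 against 2 and 3) as a term, Mrpl1 (adjusted p = 0.0428) and Mrpl24 (adjusted p = 0.0460, limma). At 1.5 days, 2 were called with weights per array, Mrpl24 (adjusted p = 0.0274) and Mrps35 (adjusted p = 0.0319), where RANKL 3 days replicate 1 had the lowest weight, 0.25. The cause was not tested. Leaving out each array in turn gave 0 to 1 calls at 3 days, the 1 being Mrpl1 without RANKL 3 days replicate 1, and 0 to 0 at 1.5 days and between the times. The large subunit median then ranged from 0.0183 to 0.16 at 3 days, 0.09 to 0.16 at 1.5 days and -0.09 to 0.0017 between them, and the small subunit median from -0.0117 to 0.15, 0.085 to 0.18 and -0.10 to 0.0017.

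Same-numbered arrays of different groups correlated at 0.05 to 0.37 over 9 pairs in their deviations from the group means, and differently numbered arrays at -0.32 to 0.18. Between the 1.5 and 3 days groups all 3 pairs passed 0.1 (0.37, 0.21 and 0.15), and the replicate block changed no call there (0 members called). Against CSF-1 alone 1 pair fell short at each time (0.05 and 0.06), so these numbers were not taken to pair the arrays. The replicate 1 arrays held the highest correlations of all pairs. These were 0.27 for CSF-1 alone with 1.5 days, 0.33 for CSF-1 alone with 3 days and 0.37 for 1.5 with 3 days. Replicate 1 also had the lowest MRP median of every group (-0.08, 0.09 and -0.11). What the replicate 1 arrays share was not tested. With the replicate block, 0 members were called at 3 days and 1 at 1.5 days (Mrpl52, adjusted p = 0.0420, limma). CSF-1 alone replicates 2 and 3, RANKL 1.5 days replicate 3 and RANKL 3 days replicate 3 each correlated best with an array of another number. RANKL 1.5 days replicate 3 correlated at 0.18 with RANKL 3 days replicate 2 and at 0.15 with RANKL 3 days replicate 3.

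With 3 arrays a group, changes well above the median SE of an MRP gene, 0.12 on the log2 scale, also failed to pass. Mrpl1 at 3 days, with a difference of 0.32 and an SE of 0.06, had an adjusted p of 0.0920 (limma). The values come from normalised arrays, so a change shared by most genes is removed, and centring the arrays moved the 3 days medians to -0.01 for the large and -0.03 for the small subunit.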
